A study of Mus musculus with 9 samples.

Results

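The genes described here encode the nuclear share of the mitochondrial respiratory chain and of ATP synthase. They were taken by symbol from the deposited table of 46517 genes: symbols beginning with Nduf and one of the letters a, b, c, s or v, the Sdh genes for subunits a to d, and symbols beginning with Uqcr, Cox4 to Cox8 or Atp5. After 4 pseudogene symbols with the same beginnings were left out, 92 genes remained, and no expression value entered the choice. By symbol they were 38 genes of complex I, 7 complex I assembly factors, 4 genes of complex II, 8 of complex III, 18 of complex IV and 17 of ATP synthase. All 92 were annotated as protein-coding, and 3 of them (Ndufa1, Ndufb11 and Cox7b) lie on the X chromosome. A few symbols do not name the complex their product works in: human studies place ATP5SL among the complex I assembly factors, NDUFA4 in complex IV and COX7A2L in the linkage of complexes III and IV.

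Bulk RNA was sequenced from spleens and lymph nodes of C57BL/6 mice aged over 18 months; the protocol names splenocytes as the source of the RNA. plckGAPDH mice, which the labels call tumour-developing, express a Gapdh transgene from the Lck promoter, whose activity lies in the T cell lineage. The groups were 4 plckGAPDH spleens (animals 343, 508 and 547, and a spleen whose column carries no animal number and is called the unnumbered spleen), 2 plckGAPDH lymph nodes (animals 455 and 508) and 3 wild-type spleens (animals 1, 4 and 5). Wild-type lymph nodes were not analysed here, so lymph nodes were compared with plckGAPDH spleens. A sample title with the number 331 has no column of that name, and whether the unnumbered spleen is that animal was not settled. Its column is named rateB, while the columns of spleens 343 and 547 carry rateA. Whether the unnumbered spleen is a second piece from a listed animal was not settled either, and the fits counted it as a separate animal. Its leading V genes, Ighv1-72 with 69.97% of the Ighv signal and Trbv20 with 75.8% of the Trbv signal, led in none of the other 3 plckGAPDH spleens. The values are FPKM, counted fragments relative to the length of the gene and to the total of the library. All samples are mixtures of cells, so fewer cells of a type and less RNA per cell cannot be told apart.

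The respiratory chain sits in the inner mitochondrial membrane. Complex I and complex II pass electrons from NADH and succinate to ubiquinone, complex III hands them to cytochrome c, and complex IV gives them to oxygen; ATP synthase uses the resulting proton gradient to make ATP. Most subunits come from nuclear genes and are imported, while a small core set is encoded by the mitochondrial genome, so both sets must be made in balance. Lymphocytes enlarge their mitochondrial machinery when they leave rest and divide.

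Gapdh, the gene of the transgene, stood at 429.6, 505, 889.9 and 894 FPKM in plckGAPDH spleens 343, 508, 547 and unnumbered, at 554 and 312 FPKM in lymph nodes 455 and 508, and at 299, 348 and 338 FPKM in wild-type spleens 1, 4 and 5. Every plckGAPDH spleen lay above every wild-type spleen, and limma gave a log2 fold change of 0.97 (SE 0.49, FDR 0.635). Estimated depth was 23900000 to 34500000 fragments per library. Mitochondrial ribosomal RNA took 24.8% to 49.0% of the fragments in plckGAPDH spleens, 39.0% to 51.8% in lymph nodes and 23.7% to 53.6% in wild-type spleens, the lowest share being that of wild-type spleen 5 and the highest that of wild-type spleen 4. Since FPKM is relative to the library total, a gene with a large share of it lowers the FPKM of the others by construction. Wild-type spleen 5 also differed in its sex-linked transcripts, with 0.09 FPKM of Xist and 30.5 FPKM of Eif2s3y, against 31.2 to 59.7 FPKM of Xist and 0 of Eif2s3y in the other 8 libraries. The summed level of 7 erythroid markers was 74168 FPKM there, against 71.4 and 1.81 FPKM in wild-type spleens 1 and 4. B cell markers (6 genes) summed to 569.6 to 1142 FPKM in plckGAPDH spleens, 364 to 442 FPKM in lymph nodes and 399.9 to 1721 FPKM in wild-type spleens, with T cell markers (6 genes) at 119 to 552 FPKM in plckGAPDH spleens, 97.9 to 151 FPKM in lymph nodes and 278 to 426 FPKM in wild-type spleens. The lymphocyte markers were present throughout, but wild-type spleen 4 stood apart in other markers. Its 6 neutrophil markers summed to 3.96 FPKM, against 3357 and 478 FPKM in wild-type spleens 1 and 5. They summed to 559 to 1323 FPKM in plckGAPDH spleens and 36.3 to 53.6 FPKM in lymph nodes. Adipose markers (5 genes) summed to 9.87 FPKM there, to 1.02 to 2.62 FPKM in the other spleens, and to 13.8 and 0.67 FPKM in lymph nodes 455 and 508. What tissue parts that library holds was not tested.

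Promoters of 76 of the 92 genes were found in the RefSeq table of GRCm38.p6, each running from 250 bases before to 50 bases after the annotated start. They were searched on both strands for 3 motifs known from respiratory genes. The NRF1 motif, read as GCGCA, any base and GCGC, was present in 19 of 76 (25%), against 5.19% of the promoters of all 27025 genes and 12.3% of those of 8755 genes tested in the spleens. AAGATGGC, the core of the YY1 site, was present in 11 (14.5%), against 3.19% and 5.73%. CCGGAAG, an ETS site of the kind bound by GABPA, was present in 17 (22.4%), against 9.93% and 22.2%, so its share equalled that of expressed genes. Matches of the YY1 core were found in 7 of 33 complex I and 4 of 16 ATP synthase promoters and in none of the 27 others. By their letters CCGGAAG and AAGATGGC can overlap in AAG, and AAGATGGC and the NRF1 motif in GC. A match describes letters, not occupancy. 4 upstream stretches are shown, without the annotated exons, because they hold a repeated NRF1 letter pattern (Cox6a1, a complex IV subunit), a lone NRF1 match (Ndufs5, complex I), a lone ETS match (Uqcr11, complex III) and none of the 3 motifs (Atp5g1, whose transcript ranked near the top of the difference between spleens). Capitals mark the matches, all 4 are on the minus strand, and in the order shown they lie in GRCm38.p6 at chr5:115348982-115349129, chr4:123718203-123718436, chr10:80406831-80407071 and chr11:96075671-96075881.
Cox6a1: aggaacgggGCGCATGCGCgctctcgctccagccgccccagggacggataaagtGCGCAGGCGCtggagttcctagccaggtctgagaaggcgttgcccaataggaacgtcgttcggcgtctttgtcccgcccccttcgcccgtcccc
Ndufs5: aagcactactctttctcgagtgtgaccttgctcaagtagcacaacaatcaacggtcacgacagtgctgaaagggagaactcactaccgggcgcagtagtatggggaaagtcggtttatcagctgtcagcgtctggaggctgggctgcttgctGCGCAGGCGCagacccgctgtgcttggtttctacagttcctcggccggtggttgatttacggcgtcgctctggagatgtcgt
Uqcr11: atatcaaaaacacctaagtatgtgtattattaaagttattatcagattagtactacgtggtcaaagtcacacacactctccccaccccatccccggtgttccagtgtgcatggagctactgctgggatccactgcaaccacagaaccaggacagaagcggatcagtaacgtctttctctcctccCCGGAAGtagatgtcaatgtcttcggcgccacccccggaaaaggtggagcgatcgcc
Atp5g1: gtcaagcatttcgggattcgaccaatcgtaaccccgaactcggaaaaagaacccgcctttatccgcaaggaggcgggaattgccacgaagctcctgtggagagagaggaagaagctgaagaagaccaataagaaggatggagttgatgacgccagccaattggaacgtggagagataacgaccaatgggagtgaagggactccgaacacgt
In Cox6a1 the matches begin 162 and 117 bases before the start, in Ndufs5 98 bases and in Uqcr11 66 bases before it.

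The chain was expressed in every library. A gene was tested between the spleens where it reached 1 FPKM in 3 of the 7 spleens, which 85 of the 92 did, and 79 of the 92 reached 2 FPKM in all 9 libraries. The 7 below that filter were isoforms known from other tissues or states. The median of the 85 tested genes was 31.5, 45.8, 69.8 and 56.7 FPKM in plckGAPDH spleens 343, 508, 547 and unnumbered, 36.6 and 32.8 FPKM in lymph nodes 455 and 508, and 35.4, 24.4 and 52.7 FPKM in wild-type spleens 1, 4 and 5. Spleen 547 and the unnumbered spleen were the highest, spleen 343 lay below 2 of the wild-type spleens, and the genotypes overlapped. Atp5b, the catalytic beta subunit of ATP synthase, was the most abundant member in 8 of the 9 libraries, and Cox4i1, a regulatory subunit of complex IV, led in lymph node 508.

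**Figure D1:**
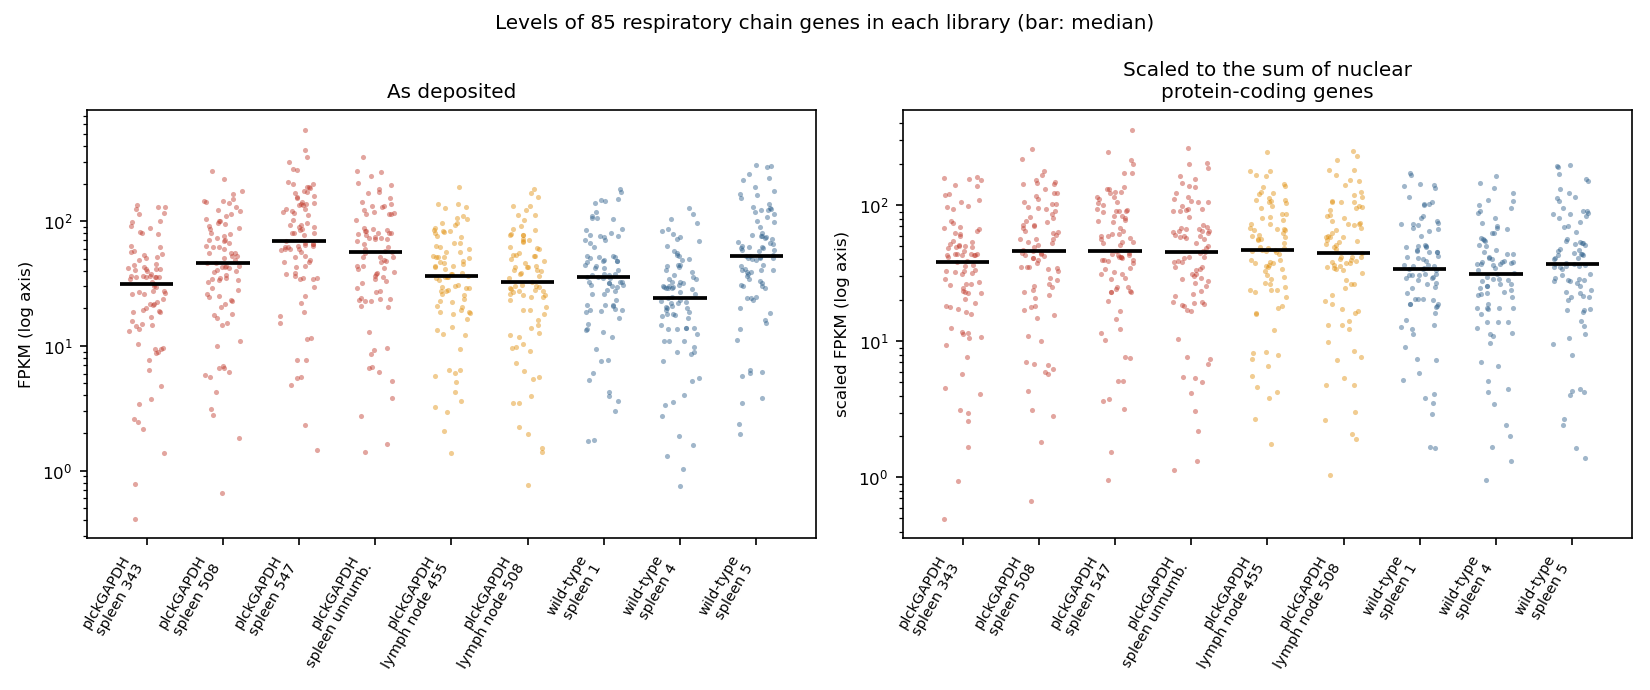
FPKM of the 85 tested respiratory chain genes in each library on log axes, as deposited (left) and after scaling every library to the same sum over nuclear protein-coding genes outside the antigen receptor and globin genes (right). Each point is a gene and each bar the median of a library. As deposited, the medians of plckGAPDH spleens (31.5 to 69.8) and wild-type spleens (24.4 to 52.7) overlap; after scaling, plckGAPDH spleens (38.1 to 46.5) lie above wild-type spleens (31.1 to 37.1).

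Between the spleens, nearly all members had a higher mean in plckGAPDH mice, but none passed the test. With limma, 0 of 85 members were called higher and 0 lower at an FDR under 0.05, where 0.206% and 1.23% of the 12607 genes tested were called higher and lower (1.44% in all). The log2 fold change was positive for 75 members and negative for 10, where 51.6% of all tested genes were positive, and its median was 0.39 for the members and 0.02 for all genes. Single libraries moved the members' median: it was 0.08 without wild-type spleen 4, 0.17 without spleen 547, 0.63 without spleen 343 and 0.68 without wild-type spleen 5. The count of positive members moved as well, to 54 without wild-type spleen 4 and to 83 without wild-type spleen 5. It was 59 with scaling to genes outside the mitochondrial, receptor, globin and ribosomal RNA genes. No member had every plckGAPDH spleen above every wild-type spleen, and none had every one below, against 3.39% and 3.88% of all genes. At an unadjusted p under 0.05 there was 1 member, Atp5g1, where 8.85% of all genes had such a p.

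By complex, the median log2 fold change was 0.38 over 37 complex I genes (34 positive), 0.41 over the 4 complex II genes (4 positive), 0.52 over 8 complex III genes (8 positive), 0.50 over 12 complex IV genes (12 positive) and 0.47 over 17 genes with Atp5 symbols (14 positive). For the 7 Ndufaf assembly factors it was -0.05, with 3 positive, and differences between these gene groups were not tested. FDR values from limma ran from 0.513 to 0.997 over the 85 members.

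**Figure D2:**
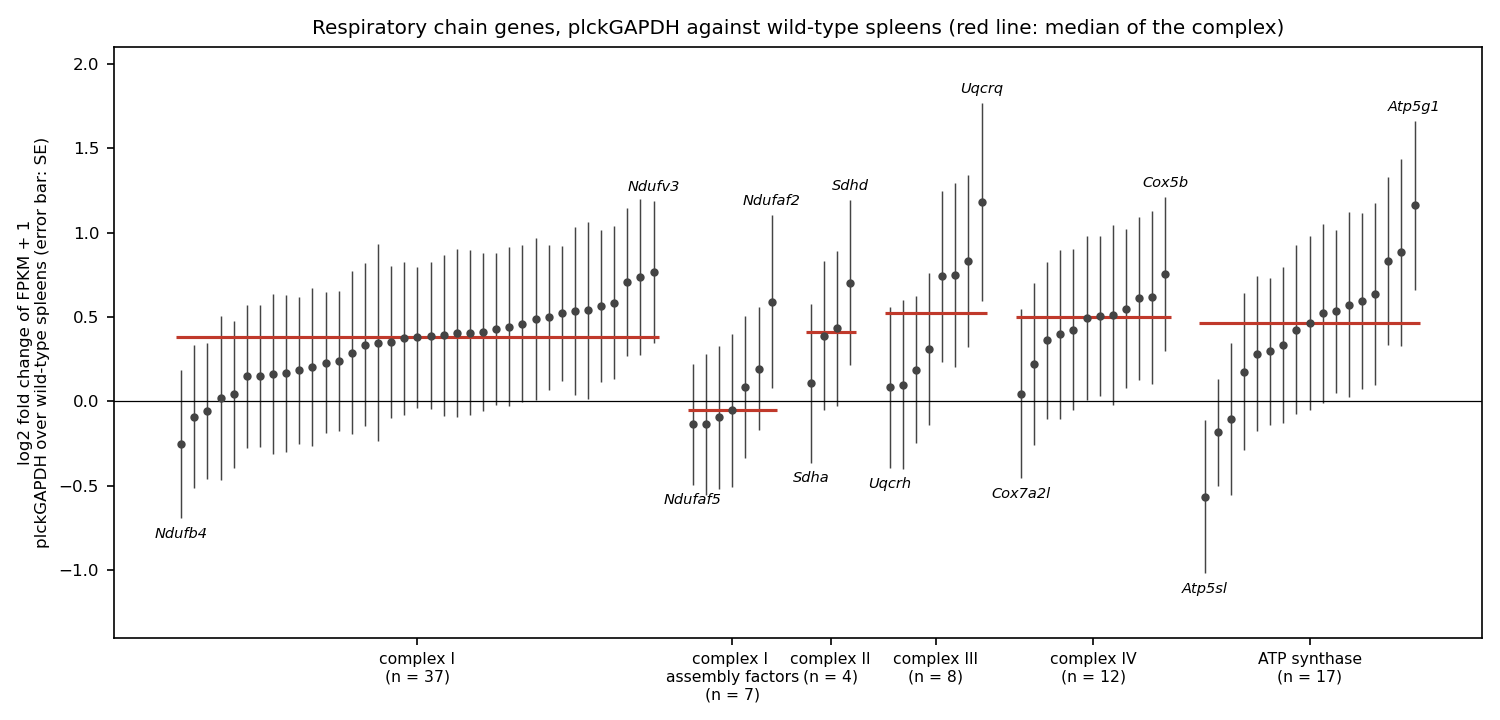
Log2 fold change of FPKM + 1 in plckGAPDH spleens over wild-type spleens for 85 respiratory chain genes, ordered within each complex. Points are limma estimates, bars their standard errors and red lines the median of a group. Complex I to IV and ATP synthase have medians from 0.38 to 0.52 and assembly factors -0.05; the outermost genes are Uqcrq at 1.18 and Atp5sl at -0.56.

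Complex I, the NADH dehydrogenase, had median levels of 21.7, 37.0, 58.4 and 43.6 FPKM in plckGAPDH spleens 343, 508, 547 and unnumbered and of 30.7, 19.3 and 41.3 FPKM in wild-type spleens 1, 4 and 5. Its most abundant member was Ndufa3, an accessory subunit, at 81.9, 101, 137 and 137 FPKM in plckGAPDH spleens and 110.1, 55.6 and 162 FPKM in wild-type spleens. All plckGAPDH values of Ndufa3 lay between wild-type spleens 4 and 5. Ndufv3, an accessory subunit of the module that oxidises NADH, had the largest log2 fold change of complex I, 0.77 (SE 0.42, FDR 0.697 by limma). It measured 49.0, 85.8, 64.4 and 79.5 FPKM in plckGAPDH spleens and 37.2, 29.1 and 57.2 FPKM in wild-type spleens, so only spleen 343 lay within the wild-type range. Ndufb4, an accessory subunit of the membrane arm, had the lowest, -0.25 (SE 0.44, FDR 0.976 by limma), with 14.7, 10.9, 18.5 and 20.7 FPKM in plckGAPDH spleens and 18.8, 10.9 and 33.0 FPKM in wild-type spleens. For Ndufb4, spleen 508 stood level with the lowest wild-type spleen and the other 3 within the wild-type range.

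The assembly factors, which join complex I modules and leave the finished complex, were among the lowest members. Their median was 2.60, 4.24, 7.71 and 6.67 FPKM in plckGAPDH spleens and 5.37, 3.35 and 6.14 FPKM in wild-type spleens. Ndufaf3, which acts early in assembly, was the most abundant, with 7.76, 6.14, 11.5 and 9.19 FPKM in plckGAPDH spleens and 9.50, 5.20 and 16.2 FPKM in wild-type spleens. Ndufaf5, a modifier of the subunit NDUFS7 in human cells, had the lowest log2 fold change, -0.14 (SE 0.36, FDR 0.991 by limma), from 3.76, 3.11, 5.48 and 5.22 FPKM in plckGAPDH spleens and 5.37, 3.35 and 6.14 FPKM in wild-type spleens. Ndufaf2, a late assembly chaperone, had the highest, 0.59 (SE 0.51, FDR 0.898 by limma). It measured 2.44, 6.63, 17.4 and 6.67 FPKM in plckGAPDH spleens and 4.27, 2.72 and 6.08 FPKM in wild-type spleens, and spleen 547 alone was more than 2-fold above all others.

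Complex II, succinate dehydrogenase, also belongs to the TCA cycle, and all 4 of its subunits are nuclear. Sdha, the flavoprotein that oxidises succinate, measured 41.4, 24.6, 79.9 and 41.3 FPKM in plckGAPDH spleens 343, 508, 547 and unnumbered, 26.1 and 14.6 FPKM in lymph nodes 455 and 508, and 47.6, 26.2 and 50.1 FPKM in wild-type spleens 1, 4 and 5. Sdhb, the iron-sulphur subunit, measured 29.4, 38.8, 62.6 and 56.7 FPKM in plckGAPDH spleens, 35.9 and 25.5 FPKM in lymph nodes, and 30.3, 24.4 and 53.2 FPKM in wild-type spleens. Both genes had spleen 547 on top and overlapping genotypes, and Sdha was lowest in the spleen and lymph node of animal 508. Sdhc, a membrane anchor, measured 6.35, 9.94, 22.0 and 13.0 FPKM in plckGAPDH spleens, 12.4 and 5.64 FPKM in lymph nodes, and 7.70, 5.52 and 13.6 FPKM in wild-type spleens. Sdhd, the other anchor, measured 23.6, 29.0, 69.8 and 42.2 FPKM in plckGAPDH spleens, 23.8 and 20.6 FPKM in lymph nodes, and 21.4, 13.9 and 39.4 FPKM in wild-type spleens. The log2 fold changes between spleens were 0.11 (SE 0.47) for Sdha, 0.39 (SE 0.44) for Sdhb, 0.43 (SE 0.46) for Sdhc and 0.70 (SE 0.49) for Sdhd, with limma FDR values of 0.992, 0.941, 0.934 and 0.831. The difference between the flavoprotein and its anchors was not tested.

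Complex III, the cytochrome bc1 complex, held the largest log2 fold change of all members. Uqcrq, a small subunit near the ubiquinone site, measured 8.86, 70.4, 43.0 and 23.96 FPKM in plckGAPDH spleens 343, 508, 547 and unnumbered, 27.4 and 53.1 FPKM in lymph nodes 455 and 508, and 11.8, 9.80 and 15.2 FPKM in wild-type spleens 1, 4 and 5. Spleen 343 was below every wild-type spleen and all other plckGAPDH samples were above every one. The log2 fold change between spleens was 1.18 (SE 0.59, FDR 0.631 by limma). Uqcrh, the hinge protein that docks cytochrome c1, was the most abundant member of the complex and had its lowest fold change, 0.08 (SE 0.48, FDR 0.995 by limma). It measured 129.6, 175, 207 and 232 FPKM in plckGAPDH spleens and 173, 105 and 279 FPKM in wild-type spleens, all plckGAPDH values lying within the wild-type range.

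Complex IV, cytochrome c oxidase, had median levels of 71.7, 107, 173 and 132 FPKM in plckGAPDH spleens and 79.6, 53.7 and 126 FPKM in wild-type spleens, where each median is over 12 genes. Cox4i1 measured 131, 216, 325 and 252 FPKM in plckGAPDH spleens and 144, 84.1 and 240.0 FPKM in wild-type spleens. Cox5b, a zinc-binding subunit on the matrix side, had the largest log2 fold change, 0.75 (SE 0.46, FDR 0.771 by limma), from 79.9, 103, 152 and 133 FPKM in plckGAPDH spleens and 62.0, 44.8 and 108 FPKM in wild-type spleens. Cox7a2l had the lowest, 0.04 (SE 0.50, FDR 0.997 by limma), with 115, 145, 173 and 169 FPKM in plckGAPDH spleens and 147, 74.5 and 272 FPKM in wild-type spleens. For both Cox4i1 and Cox5b the plckGAPDH spleens 547 and unnumbered lay above every wild-type spleen and 343 and 508 did not; for Cox7a2l every plckGAPDH spleen lay within the wild-type range.

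ATP synthase joins a catalytic head to a rotor ring in the membrane. Atp5b measured 134, 254, 541 and 325 FPKM in plckGAPDH spleens 343, 508, 547 and unnumbered and 180.3, 128 and 282 FPKM in wild-type spleens 1, 4 and 5. The ring subunit c is encoded by 3 genes, Atp5g1, Atp5g2 and Atp5g3, whose mature products are alike. Whether their transcripts share reads was not tested. Atp5g1 measured 41.7, 122, 115 and 83.1 FPKM in plckGAPDH spleens, 93.0 and 76.9 FPKM in lymph nodes, and 38.0, 22.5 and 58.3 FPKM in wild-type spleens. All plckGAPDH samples except spleen 343 lay above every wild-type spleen, and the log2 fold change between spleens was 1.16 (SE 0.50) with an unadjusted limma p of 0.0386 and an FDR of 0.513. Atp5g2 measured 44.2, 43.8, 188 and 82.8 FPKM in plckGAPDH spleens and 35.4, 28.4 and 62.6 FPKM in wild-type spleens, and Atp5g3 measured 35.8, 66.7, 136 and 88.6 FPKM in plckGAPDH spleens and 37.7, 30.7 and 58.3 FPKM in wild-type spleens. Their log2 fold changes were 0.88 (SE 0.55) and 0.83 (SE 0.50), with limma FDR values of 0.793 and 0.766, so c-subunit genes were 3 of the 5 members with the largest fold change. Atp5sl, with the lowest fold change of all members, had 10.4, 6.70, 15.3 and 9.56 FPKM in plckGAPDH spleens and 19.6, 7.57 and 23.99 FPKM in wild-type spleens, with a log2 fold change of -0.56 (SE 0.45, FDR 0.882 by limma). Wild-type spleens 1 and 5 lay above every plckGAPDH spleen for Atp5sl and wild-type spleen 4 lay near the lowest.

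**Figure D3:**
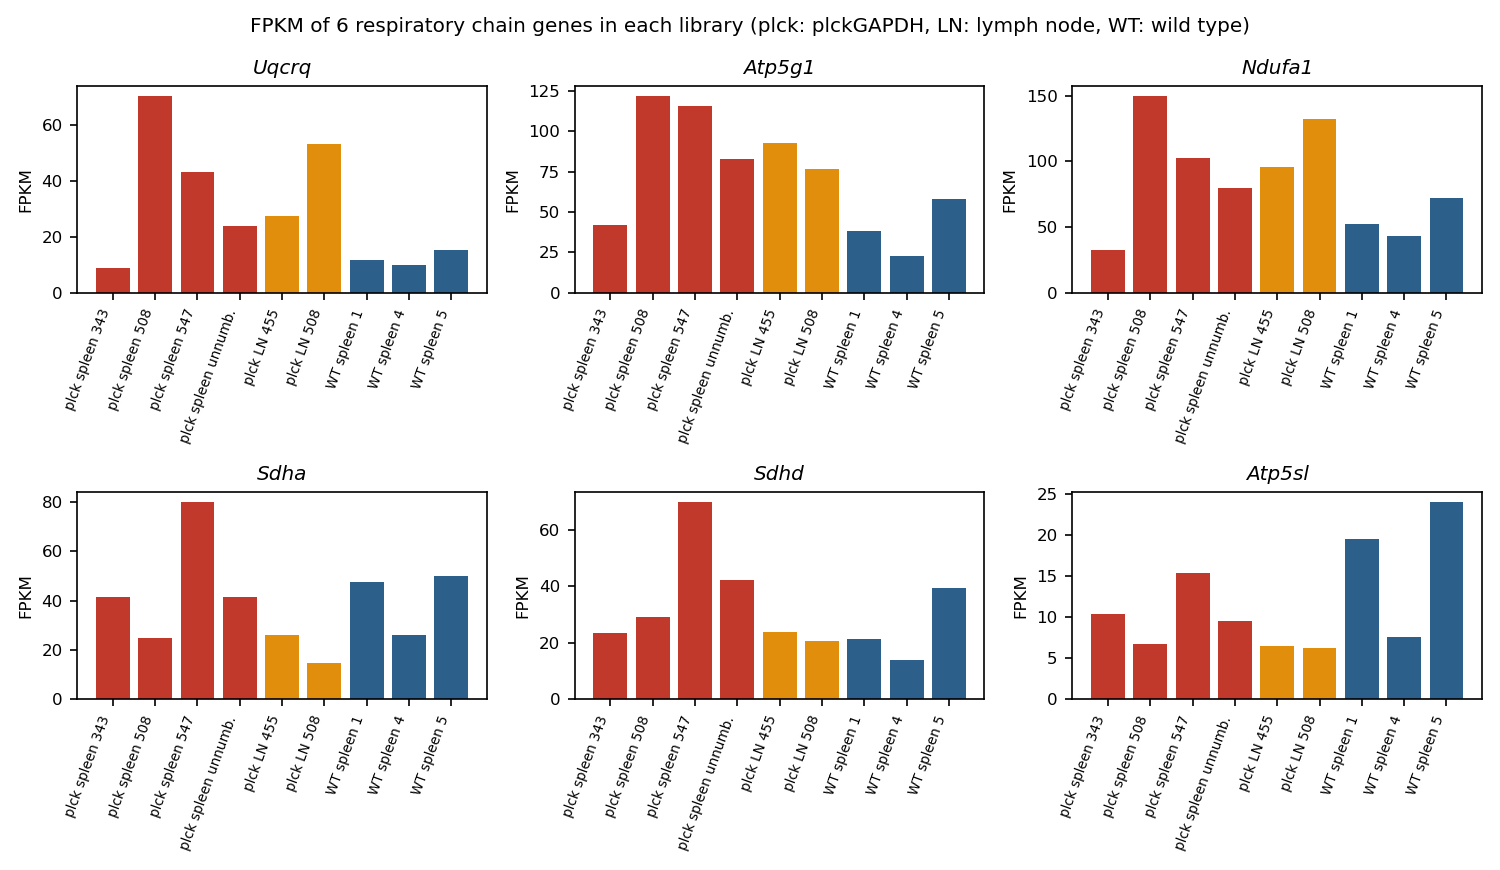
FPKM of 6 respiratory chain genes in each of the 9 libraries: plckGAPDH spleens (red), plckGAPDH lymph nodes (orange) and wild-type spleens (blue). Each bar is 1 library. Uqcrq, Atp5g1 and Ndufa1 are highest in the spleen of animal 508, Sdha and Sdhd are highest in spleen 547, and Atp5sl is highest in wild-type spleen 5.

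The 4 plckGAPDH spleens did not behave alike. On deposited FPKM, 72 of 85 members in spleen 547 exceeded all 3 wild-type spleens, where 45.8% of all tested genes did. In the unnumbered spleen 49 did, where 33.4% did. In spleen 508 the count was 18, with 7 below every wild-type spleen, against 14.1% and 47.0% of all genes. In spleen 343 no member was above every wild-type spleen and 14 were below, against 16.4% and 21.3% of all genes. These counts moved with the scaling. Scaled to the sum of nuclear protein-coding genes, 18, 56, 64 and 59 members exceeded every wild-type spleen in spleens 343, 508, 547 and unnumbered. Of all genes, 42.9%, 20.3%, 30.8% and 28.5% did. With median-of-ratios scaling 3, 71, 61 and 54 members did, against 26.3%, 30.9%, 31.8% and 26.6% of all genes. Below every wild-type spleen were 18, 13, 4 and 4 members with the protein-coding scaling, against 15.3%, 50.5%, 37.8% and 24.6% of all genes. With median-of-ratios scaling 44, 6, 5 and 7 were below, against 28.3%, 38.5%, 38.0% and 29.2%. The summed level of 12 cell cycle genes was 174, 264, 871 and 542 FPKM in plckGAPDH spleens 343, 508, 547 and unnumbered, and 141, 173 and 152 FPKM in wild-type spleens 1, 4 and 5. All 12 cell cycle genes exceeded the 3 wild-type spleens in the unnumbered spleen and in spleen 547, 8 did so in spleen 508 and 4 in spleen 343. On deposited FPKM, the cell cycle sum and the members' median had the same order among the plckGAPDH spleens. This did not extend to the other libraries: lymph node 455 had a cell cycle sum of 272 FPKM with a members' median of 36.6 FPKM. Wild-type spleen 4 had the highest wild-type sum with the lowest median. With the protein-coding scaling the members' medians were 38.1, 46.5, 46.4 and 45.7 in spleens 343, 508, 547 and unnumbered and 47.3 in lymph node 455. The cell cycle sum was not rescaled, so the 2 orders were compared only on deposited FPKM, where both are relative to the same library total. The factors of the protein-coding scaling had that order too, at 0.83, 0.99, 1.51 and 1.24 in spleens 343, 508, 547 and unnumbered. Mitochondrial ribosomal RNA took 24.8%, 33.8%, 29.2% and 49.0% of the fragments in spleens 547, unnumbered, 508 and 343. The part of either in the levels of the members was not tested.

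How high the members stood depended on what each library was scaled to. As a share of the summed FPKM of nuclear protein-coding genes outside the antigen receptor and globin genes, all members together made up 1.56%, 2.04%, 2.19% and 1.99% in plckGAPDH spleens 343, 508, 547 and unnumbered, 2.01% and 2.04% in lymph nodes 455 and 508, and 1.52%, 1.33% and 1.72% in wild-type spleens 1, 4 and 5. Spleens 508, 547 and unnumbered and both lymph nodes exceeded every wild-type spleen, and spleen 343 did not. When each library was scaled to that same sum, a scaling chosen after the data were seen, the median member stood at 38.1, 46.5, 46.4 and 45.7 in plckGAPDH spleens, 47.3 and 44.8 in lymph nodes, and 34.0, 31.1 and 37.1 in wild-type spleens. The medians of plckGAPDH and wild-type spleens did not overlap, whereas the shares, which abundant members weigh on most, did. With median-of-ratios scaling the medians were 31.0, 55.1, 45.3 and 42.9 in plckGAPDH spleens and 29.6, 31.1 and 38.2 in wild-type spleens, where spleen 343 overlapped. Scaled to the sum of genes outside the mitochondrial, receptor, globin and ribosomal RNA genes, the medians were 46.4, 26.8, 70.7 and 60.8 in plckGAPDH spleens and 38.4, 46.9 and 41.1 in wild-type spleens, so spleen 508 lay below every wild-type spleen and 343 within their range. 7SL RNA (Rn7s1) holds much of that sum. It stood at 540720 FPKM in spleen 508 and at 104791 to 194291 FPKM in the other plckGAPDH spleens. Wild-type spleens had 88550 to 283094 FPKM. The members' median log2 fold change was 0.34 with median-of-ratios scaling, 0.32 with the protein-coding scaling and 0.14 outside those 4 gene classes, against 0.39 on deposited FPKM. No scaling gave a member called by limma.

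With the protein-coding scaling 15 of 85 members had every plckGAPDH spleen above every wild-type spleen, where 5.88% of all genes did, and 1 member, Atp5h, had every one below, where 6.08% did. The 15 were Atp5a1, Atp5g1, Atp5g2, Atp5g3, Cox5b, Cox6b1, Cox8a, Ndufa11, Ndufa12, Ndufc1, Ndufc2, Ndufs6, Ndufv2, Ndufv3 and Sdhd. Atp5g1 stood at 50.4, 124, 76.7 and 67.0 scaled FPKM in plckGAPDH spleens 343, 508, 547 and unnumbered and at 36.5, 28.6 and 41.0 in wild-type spleens 1, 4 and 5. Cox5b stood at 96.7, 105, 101 and 107 in plckGAPDH spleens and at 59.6, 57.2 and 75.9 in wild-type spleens. The 4 plckGAPDH values of Cox5b lay closer together than the 3 wild-type values, although their deposited FPKM had differed almost 2-fold. Median-of-ratios scaling left 2 members with every plckGAPDH spleen above and 1 with every one below, against 5.41% and 8.23% of all genes. On deposited FPKM, 14 members had every plckGAPDH spleen above once spleen 343 was left out, against 8.04% of all genes, and 10 once wild-type spleen 5 was left out, against 7.47%. When limma weighted the samples by quality, 24.8 for wild-type spleen 1 and 0.296 to 2.04 for the rest, 8 members were called higher and 1 lower, against 7.07% and 7.71% of all genes. The 8 were Atp5g1, Atp5g2, Atp5g3, Ndufv3, Ndufc1, Ndufc2, Uqcr10 and Cox5b, and the member called lower was Atp5sl.

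Within a library the members kept their order closely in wild-type spleens and less so in plckGAPDH samples other than spleen 343. For 79 members at 2 FPKM or more in every library, the log2 ratio to the library's own member median was set against the wild-type mean of that ratio. Its SD over members was 0.25, 0.54, 0.47 and 0.31 in plckGAPDH spleens 343, 508, 547 and unnumbered, 0.42 and 0.62 in lymph nodes 455 and 508, and 0.11, 0.17 and 0.13 in wild-type spleens 1, 4 and 5. The wild-type values enter their own mean, which draws their SD down. The SD of spleen 343 (0.25) was therefore not shown to exceed that of wild-type spleen 4 (0.17). The same SD was not taken over all expressed genes, so the wider spread was not shown to be particular to the members. The samples of animal 508 deviated most and in the same genes: Uqcrq stood 2.18 above its wild-type position in the spleen and 2.2 in the lymph node, and Ndufa1, an X-linked accessory subunit of the complex I membrane arm, 1.09 and 1.34 above. Atp5g1 stood 1.36 above in the spleen of animal 508 and 1.12 above in its lymph node. Lymph node 455 shared these genes, with 1.21 for Uqcrq, 1.36 for Atp5g1 and 0.84 for Ndufa1, while spleen 343 had -0.31, 0.32 and -0.62.

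Other members stood low in the same libraries. Uqcrb, a ubiquinone-binding subunit of complex III, was 0.96 and 1.41 below its wild-type position in the spleen and lymph node of animal 508 (log2 values of -0.96 and -1.41), opposite in sign to Uqcrq. Sdha was at -1.06 and -1.39 there, and at 0.20, -0.04 and -0.62 in spleens 343, 547 and unnumbered. Atp5sl was at -0.42, -1.56, -1.04 and -1.35 in plckGAPDH spleens 343, 508, 547 and unnumbered and at -1.22 and -1.23 in lymph nodes 455 and 508, where wild-type spleens 1, 4 and 5 had 0.43, -0.49 and 0.07. Ndufb4 was below 0 in all 6 plckGAPDH samples, from -0.23 in spleen 343 to -1.32 in lymph node 508. Spleen 547 had a pattern of its own at the top, led by Atp5g2 at 1.19, the Rieske iron-sulphur protein Uqcrfs1 at 1.05 and Ndufaf2 at 1.02.

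**Figure D4:**
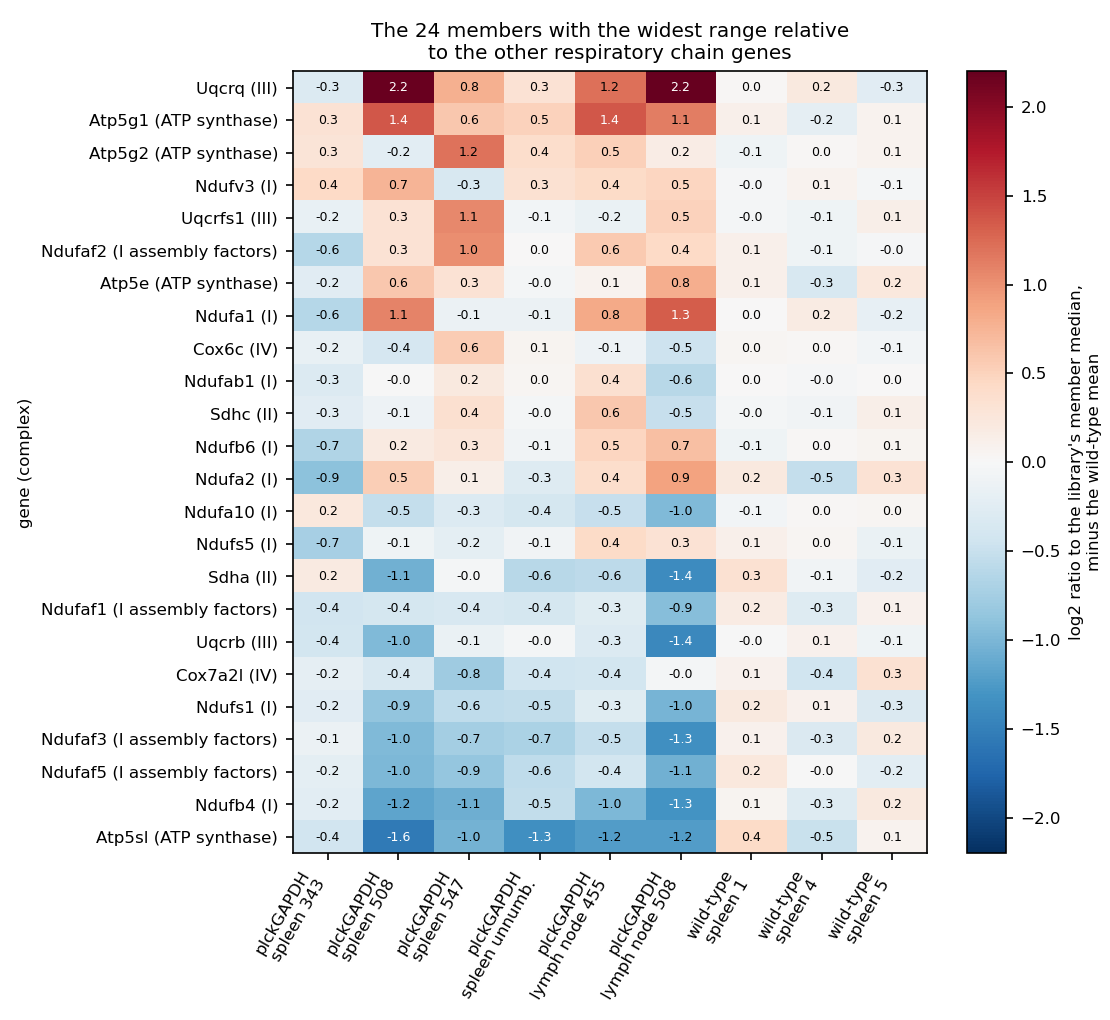
The 24 respiratory chain genes with the widest range of relative level across the 9 libraries, plckGAPDH spleens left, lymph nodes in the middle and wild-type spleens right. Colour and number give the log2 ratio to the library's member median minus the wild-type mean of that ratio. Uqcrq reaches 2.2 in both samples of animal 508, and Atp5sl lies at -1.0 or lower in 5 of the 6 plckGAPDH samples.

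The libraries in which Uqcrq, Atp5g1 and Ndufa1 stood high also held the most plasma cell RNA. The 5 plasma cell markers summed to 4390.1 FPKM in the spleen of animal 508, to 2563 and 2317 FPKM in lymph nodes 455 and 508, and to 70.3, 294 and 179.7 FPKM in plckGAPDH spleens 343, 547 and unnumbered, against 282, 216 and 323 FPKM in wild-type spleens 1, 4 and 5. All 5 markers lay above every wild-type spleen in those 3 libraries. The same libraries had the most negative relation to gene length, and spleens 547 and unnumbered shared the sign. Spearman's rho was taken between the log ratio to wild type and the annotated exon length across 7241 genes, which are not independent replicates. It was -0.27 in spleen 508, -0.22 and -0.34 in lymph nodes 455 and 508, and 0.11, -0.14 and -0.16 in spleens 343, 547 and unnumbered. Over the 79 members rho was -0.18 in spleen 508, -0.08 and -0.24 in lymph nodes 455 and 508, and 0.10, -0.03 and -0.02 in spleens 343, 547 and unnumbered. The annotated lengths of Uqcrq, Atp5g1 and Ndufa1 were 1831, 4912 and 419 bases, against a median of 1789 bases over the 79 members. The part of plasma cells or of length in these deviations was not tested.

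Lymph nodes had lower deposited levels of most members than plckGAPDH spleens, and so did genes in general. The limma fit over all 9 samples tested 88 members and 13682 genes, and 0 members were called higher and 0 lower, where 0.00731% of all genes were called in each direction (0.0146% in all). The log2 fold change was negative for 81 members and positive for 7, where 10.8% of all genes were positive, with a median of -0.50 for the members and -0.59 for all genes. In 8 members both lymph nodes lay below every plckGAPDH spleen, where 30% of all genes did, and in none did both lie above, where 0.49% did. At an unadjusted p under 0.05 there were 2 members, Cox6a2 and Ndufa10, where 11.3% of all genes had such a p. The fit holds 2 lymph nodes, animal 508 is in both groups, and the fold is one of deposited FPKM. With median-of-ratios scaling the members' median was 0.23, and with the protein-coding scaling 0.02, so that its sign depends on the scaling. Without spleen 343, 60 members had both lymph nodes below every remaining plckGAPDH spleen, where 37.9% of all genes did.

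Ndufa10, an accessory subunit of complex I, measured 19.5 and 13.9 FPKM in lymph nodes 455 and 508 and 30.1, 25.3, 47.3 and 34.3 FPKM in plckGAPDH spleens 343, 508, 547 and unnumbered, with a log2 fold change of -0.98 (SE 0.43, FDR 0.359 by limma). Both lymph nodes lay below every plckGAPDH spleen. Cox5b likewise measured 66.3 and 48.1 FPKM in lymph nodes, against 79.9 to 152 FPKM in plckGAPDH spleens, with a log2 fold change of -0.997 (SE 0.47, FDR 0.359 by limma). Sdha, at 26.1 and 14.6 FPKM in lymph nodes, had a log2 fold change of -1.10 (SE 0.51, FDR 0.359 by limma). Medians of the complexes in this comparison ran from -0.65 for complex II to -0.46 for the assembly factors. The 7 members with positive values were Cox6a2, Ndufa1, Uqcrq, Ndufa2, Ndufs5, Ndufb6 and Atp5g1, of which Ndufa1 had 0.50 and Uqcrq 0.40.

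Isoforms known from heart, skeletal muscle, testis, lung or oxygen shortage were low in most libraries. Cox6a2, the heart and muscle form of subunit VIa, was the one that passed the filter of the spleen comparison, with 0.41, 5.65, 2.30 and 1.41 FPKM in plckGAPDH spleens 343, 508, 547 and unnumbered, 4.29 and 10.4 FPKM in lymph nodes 455 and 508, and 1.72, 0.75 and 2.36 FPKM in wild-type spleens 1, 4 and 5. The highest values of Cox6a2 were again those of animal 508 and lymph node 455, and its log2 fold change was 1.40 (SE 0.58, FDR 0.359 by limma) in lymph nodes over plckGAPDH spleens and 0.22 (SE 0.48, FDR 0.986 by limma) in plckGAPDH over wild-type spleens. Cox4i2, Cox7a1 and Cox6b2 passed the filter of the lymph node comparison as well, with log2 fold changes of -0.23, -0.28 and -0.79 and limma FDR values of 0.770, 0.663 and 0.359. Muscle markers (5 genes) summed to at most 0.11 FPKM in plckGAPDH spleens, 0.1 in lymph nodes and 0.15 in wild-type spleens, so muscle RNA was near 0 throughout. Cox6a1, the general form, measured 63.6, 109.7, 174 and 115 FPKM in plckGAPDH spleens, 56.1 and 78.2 FPKM in lymph nodes, and 74.7, 49.4 and 123 FPKM in wild-type spleens, so it exceeded the muscle form in every library.

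Cox4i2, the lung form of subunit IV that low oxygen induces, measured 0.43, 4.29, 0.05 and 0.29 FPKM in plckGAPDH spleens 343, 508, 547 and unnumbered, 0.07 and 1.17 FPKM in lymph nodes 455 and 508, and 0, 0.07 and 0.14 FPKM in wild-type spleens 1, 4 and 5. The value of spleen 508 amounts to about 64.0 estimated fragments and that of lymph node 508 to 21.1, so both samples of that animal stood above the rest. Cox6b2, a testis form, measured 0.91, 0.12, 2.44 and 0.62 FPKM in plckGAPDH spleens, 0.15 and 0 FPKM in lymph nodes, and 0.39, 0.11 and 1.21 FPKM in wild-type spleens. Cox7b2, known from testis, was listed at 2.03 FPKM in spleen 547, about 26.1 fragments, and at 0 in all other libraries. Cox7a1, a muscle form, measured 0.61, 1.24, 0.44 and 3.28 FPKM in plckGAPDH spleens, 1.37 and 0.35 FPKM in lymph nodes, and 0.77, 0 and 0.4 FPKM in wild-type spleens. Cox8b, a muscle form, was listed at 0.21 FPKM in the unnumbered spleen, about 1 fragment, and at 0 elsewhere, and Cox8c, a testis form, at 0 everywhere. Ndufa4l2, a target of low-oxygen signalling, ran from 0 to 0.47 FPKM in plckGAPDH spleens, from 0.3 to 0.31 FPKM in lymph nodes, and from 0.05 to 0.14 FPKM in wild-type spleens.

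Genes that work beside the chain were read from lists without its members, and none passed the test in either direction between the spleens. Import and inner membrane organisation had 36 of 37 genes with a positive log2 fold change and a median of 0.35, against 0.02 for all genes, led by Timm17a of the inner membrane translocase at 0.88 (SE 0.50, FDR 0.726 by limma). Glycolysis, with Gapdh among its 17 tested genes, had 15 positive and a median of 0.51. Pkm, the pyruvate kinase of dividing cells, measured 131, 172, 263 and 348 FPKM in plckGAPDH spleens 343, 508, 547 and unnumbered and 91.2, 86.5 and 98.8 FPKM in wild-type spleens, which is 1.20 on the log2 scale (SE 0.46, FDR 0.416 by limma) with no overlap. Ldhb, the lactate dehydrogenase subunit of oxidative tissues, was the lowest glycolysis gene at -0.95 (SE 0.35, FDR 0.380 by limma).

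The TCA cycle had 16 of 19 positive genes and a median of 0.19, and the antioxidant and uncoupling list 11 of 13 and 0.28. Prdx3, the peroxiredoxin that removes mitochondrial hydrogen peroxide, measured 41.1, 43.3, 102 and 63.8 FPKM in plckGAPDH spleens and 20.8, 9.33 and 28.0 FPKM in wild-type spleens, with no overlap and a log2 fold change of 1.67 (SE 0.49, FDR 0.184 by limma). Coq7, a hydroxylase of ubiquinone synthesis, measured 5.62, 3.71, 11.2 and 6.67 FPKM in plckGAPDH spleens and 1.77, 2.09 and 3.14 FPKM in wild-type spleens, with no overlap and a log2 fold change of 1.16 (SE 0.39, FDR 0.297 by limma), while the 20 genes of electron carriers and ubiquinone synthesis had 12 positive values and a median of 0.06. The 39 assembly factors outside the Ndufaf symbols had 24 positive values and a median of 0.13, and 23 regulators of mitochondrial DNA and biogenesis had 12 and 0.05. Myc, at 7.90, 15.5, 44.7 and 16.0 FPKM in plckGAPDH spleens and 9.47, 9.85 and 13.3 FPKM in wild-type spleens, was the highest of those regulators at 0.64 (SE 0.51, FDR 0.877 by limma), with spleen 547 far above the rest.

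The mitochondrial genome encodes the other subunits. Its 13 mRNAs summed to 43419, 40861, 16480 and 22620 FPKM in plckGAPDH spleens 343, 508, 547 and unnumbered, 50629.5 and 48319.5 FPKM in lymph nodes 455 and 508, and 27823, 40895 and 16957 FPKM in wild-type spleens 1, 4 and 5. Spleen 547 and wild-type spleen 5 had the lowest mitochondrial sums, with nuclear medians of 69.8 and 52.7 FPKM. Spleen 508 and wild-type spleen 4 had nearly equal mitochondrial sums with nuclear medians of 45.8 and 24.4 FPKM, so one level did not give the other. Both kinds of RNA share the total that FPKM is scaled to.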

How the data were processed

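The deposited table holds FPKM that the authors computed, in 9 columns, of which 8 match a sample title and 1 matches only its group. The submitters' processing notes list Bowtie2 2.2.6, RSEM, STAR 2.4.0a, Subread 1.5.0-p3 with featureCounts, and the mm10 build, without saying which of them gave the FPKM. Per the labels' protocols, stranded total RNA libraries were made from 500 ng of RNA and read as 2 reads of 75 bases. The 9 columns were all used, and 0 belonged to another series.

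Spleens (4 plckGAPDH, 3 wild type) were fitted on log2(FPKM + 1), using limma 3.58.1 (R 4.3.3) and its intensity trend, over genes with at least 1 FPKM in 3 of 7 spleens. Lymph nodes and plckGAPDH spleens came from a model of the 3 groups in all 9 samples, requiring at least 1 FPKM in 2 samples. Tests were two-sided and Benjamini-Hochberg adjusted over all genes tested, with a threshold of 0.05; fold changes on this scale understate those of low genes. The labels do not describe how animals were sampled, so p-values cover only the spread among these libraries. Depth was estimated by choosing the library size and fragment length that brought low values near whole fragments. At that choice 84.4% to 87.9% lay within 0.15 of a whole number. Evenly spread values at a choice fixed in advance would give 30.0%, so the difference does not test the estimate. No pair of libraries shared more than 0.257% identical values. Gene coordinates, lengths and types are those of GENCODE vM21 for mm10, the build of the deposited table.

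Members with values of every sample were, by rule, the Sdh genes, the most abundant member and the members with the highest and lowest fold change of each complex, tissue-restricted isoforms and Gapdh; pathway lists give their extremes. Others were named after their values were seen. The members and lists were chosen with earlier results of these data known. Alternatives covered the pseudocount (0.1), the filter, scalings, sample weights, the variance trend, the samples in the fit and each sample left out. The limma script was tested on simulated data. Many members have processed pseudogenes, and nothing in the labels says how the authors' counting treated shared reads.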

Additional observations from a re-analysis of the deposited data

Results flagged for a closer look

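The values of the 4 plckGAPDH spleens were listed for named members and for the members' median level, 27 sets in all. Cox8c, at 0 throughout, could not be examined. In 3 sets a sample stood far apart from the other 3 by the gap to its nearest neighbour relative to the range (Dixon's test, 95% level). Chance gives about 1 in 20 for values that vary continuously; it does not apply to Cox7b2 and Cox8b, where the other 3 values are 0 and any value above 0 meets the criterion. All 3 were low isoform genes of complex IV in the plckGAPDH spleens. Cox4i2 stood at 4.29 FPKM in spleen 508, against 0.05 to 0.43 FPKM in the other 3. Cox7b2 stood at 2.03 FPKM in spleen 547 and was listed at 0 in the other 3. Cox8b stood at 0.21 FPKM in the unnumbered spleen, about 1 fragment, and was listed at 0 in the other 3.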

How the results depend on the processing

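The count of members called between spleens stayed at 0 under every alternative except sample quality weights (8 higher, 1 lower). With these weights Atp5g1 (1.02), Cox5b (0.93), Ndufv3 (0.90) and Atp5sl (-0.89) passed the threshold. Leaving out single libraries, the members' median ran from 0.08 (without wild-type spleen 4) to 0.68 (without wild-type spleen 5), with 0.17 without spleen 547 and 0.63 without spleen 343. In lymph nodes over plckGAPDH spleens the median of -0.50 became 0.23 with median-of-ratios and 0.022 with protein-coding scaling, and ran from -0.71 to -0.31 with a library left out. The median of all genes moved between spleens from 0.02 to -0.18 with scaling outside mitochondrial, receptor, globin and ribosomal RNA genes, where 7SL RNA (Rn7s1, 88550 to 745736 FPKM) holds much of the sum, and to -0.38 with scaling to the members' median. The protein-coding and members' median scalings were chosen after seeing the data. The sign reversed for 10 named members. Each scaling divides a library by 1 factor and so shifts the fold changes of all genes nearly alike, most under scaling to the members' median. Reversals under a scaling therefore carry no information on single genes. Cox7a2l was at -0.0044 (median-of-ratios), -0.21 (outside those genes), -0.033 (protein-coding) and -0.44 (members' median). On the last and the second of these scalings Ndufa3 was at -0.32 and -0.091, Uqcrh at -0.40 and -0.17, and Sdha at -0.37 and -0.13. Sdha was also at -0.13 with weights and at -0.15 without wild-type spleens 4 and 5; Cox6a2 was at -0.14 with weights and -0.077 on the members' median, Sdhb at -0.085 and Sdhc at -0.0091 there. With 1 library left out, ranges were -0.43 to 0.50 for Cox7a2l, -0.25 to 0.51 for Ndufa3, -0.27 to 0.43 for Uqcrh, -0.19 to 0.37 for Sdha, -0.17 to 0.58 for Cox6a2, -0.51 to 0.23 for Ndufaf3, -0.35 to 0.0096 for Ndufaf5 and -0.63 to 0.13 for Ndufb4. Of the single-gene values, 362 kept direction and side of the threshold, 29 reversed and 4 passed it. The causes were not tested. No paired analysis was possible because the groups compared share at most 1 animal number. Depth limits the isoforms at a few fragments, not the abundant members.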
